A study of Mus musculus with 10 samples.

Results

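Etoposide and the restriction enzyme AsiSI were compared as sources of DNA breaks that join a fixed break in G1-arrested pre-B cells. The comparison used 2 etoposide libraries and 1 AsiSI library, 3 of the 10 libraries of the series, with 2 untreated libraries as background. All came from Abelson-transformed pre-B cells of C57BL/6 origin with the genotype LIG4-/-, held in G1 with imatinib for 48 h. A zinc-finger nuclease (ZFN), induced with doxycycline at 1 µg/ml from 24 h of imatinib on, cut the bait site on chromosome 6 in every library. Etoposide cells received 50 µM for 2.5 h and then 12 h in drug-free medium, while AsiSI cells received 1 µM tamoxifen 20 h after doxycycline and no etoposide. Untreated cells received neither, so the AsiSI and untreated libraries differ in tamoxifen as well as in the enzyme. A further library, DRB with AsiSI, is shown for comparison. Its cells were pretreated with DRB, a transcription inhibitor, for 2 h and received the same tamoxifen as AsiSI cells. All are transformed cells in culture, and the labels do not say how many cell lines were used or that replicates came from separate cultures. Cell identity could not be checked against expressed markers in these DNA data.

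High-throughput genome-wide translocation sequencing primes on one side of the bait break and reads through the joint into the partner sequence, called prey. Each row of the data is 1 such junction. Etoposide traps topoisomerase II, the enzyme that passes one DNA duplex through a transient break in another, at the moment when both strands are cut. AsiSI cuts wherever its fixed recognition sequence is accessible, and its cutting is blocked by CpG methylation. Lig4 is the ligase of classical end joining, and joints made without it often use a few bases that both ends share, called microhomology. Prey comprised junctions at a distance of over 1 Mb from the break at chr6:41554973 (mm10) and outside the immunoglobulin kappa locus at chr6:67555636-70726754, which the RAG recombinase cuts in such cells. This left 10320 and 3299 prey junctions with etoposide, 943 with AsiSI, and 678 and 370 in the untreated libraries, of 68433 junctions in the whole series.

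The sequences on which the comparison turns are the AsiSI sites and the bait end. AsiSI reads GCGATCGC on both strands, being palindromic. A search of 32851 RefSeq promoter windows (GRCm38.p6), which span gene starts, found the motif in 0.222% of windows, at 62 distinct sites. A further 8 sites outside those windows were found in the junction reads themselves. The rest of the genome was not searched, so prey called away from a site may still lie at one that was not seen. The sites below had the most AsiSI prey within 1 kb and are shown on the plus strand of mm10 with the motif in capitals. At the Syde2 site N marks the bases that no read covered, and the site was taken from the other 6 bases of the motif.
Syde2 site, chr3:145989039-145989062: gaagggtcGCNNTCGCgggacagc
Zc3hav1 site, chr6:38353404-38353427: attctgggGCGATCGCaacattcg
Pcgf1 site, chr6:83078405-83078428: gccagattGCGATCGCgatgaggc
Lpcat3 site, chr6:124662911-124662934: gctgggtcGCGATCGCaagccccg
Romo1 site, chr2:156144252-156144275: cgagctgaGCGATCGCagcggaga
Hk2 site, chr6:82774329-82774352: ccaatccgGCGATCGCacctatca
Alas1 site, chr9:106247866-106247889: ctaaggccGCGATCGCtggcggcc
The bait end is shown up to the break, with capitals at the 5 bases where etoposide prey most often joined.
Bait end, chr6:41554870-41554973: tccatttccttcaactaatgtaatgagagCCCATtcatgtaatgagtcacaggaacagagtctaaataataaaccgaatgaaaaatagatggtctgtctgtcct

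The libraries differed in yield before any comparison. Prey per 1000 junctions within 1 Mb of the bait was 8614 and 822 with etoposide, 127 with AsiSI, and 603 and 70.2 in the untreated libraries. The AsiSI value thus lay between the 2 untreated ones, and some of its prey can be of the kind seen without added breaks. Read names placed etoposide replicate 1 with untreated replicate 1 in 1 sequencing run and etoposide replicate 2 in another. AsiSI was in a run that holds no etoposide or untreated library, so that run and group cannot be told apart. The DRB with AsiSI library was in the AsiSI run, so its likeness to AsiSI cannot be told apart from a shared run. Median prey alignments were 271 and 75 bp with etoposide and 68 bp with AsiSI. The shares below are shares of each library's prey, and 7 of them were tested with Fisher's exact test (two-sided) for each etoposide library against the AsiSI library, with Benjamini-Hochberg adjustment over 14 tests. A difference was called where both etoposide libraries passed an adjusted p of 0.05 in the same direction. With 1 AsiSI library these tests compare libraries and cover counting error only. An exact permutation test of 2 libraries against 1 cannot go below p = 0.333.

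AsiSI prey gathered at few places, while etoposide prey was spread over many. Pairs of prey junctions within 2 kb of each other numbered 79.9 and 47.1 per 1000000 pairs with etoposide, 2790 with AsiSI, and 12340 and 718 in the untreated libraries. This rate does not grow with depth. The etoposide libraries lay closest together and lowest of the 5. The high value of untreated replicate 1 came largely from 1 window of chromosome 2 (98662235 to 98667332, no protein-coding gene within 1 Mb), which with 1 kb on each side held 59 and 4 junctions with etoposide, 13 with AsiSI, and 80 and 0 in the untreated libraries. At the common depth of 370 junctions, 2.33% and 1.65% of etoposide prey had a neighbour within 2 kb, against 24.3% of AsiSI prey and 17.9% and 11.1% of untreated prey. At 1 Mb the etoposide and AsiSI libraries lay closer together, with 3880 and 4055 pairs per 1000000 with etoposide and 6095 with AsiSI. Pairs within 1 Mb include those within 2 kb, so untreated replicate 1 stayed at 12340 or above.

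**Figure D1:**
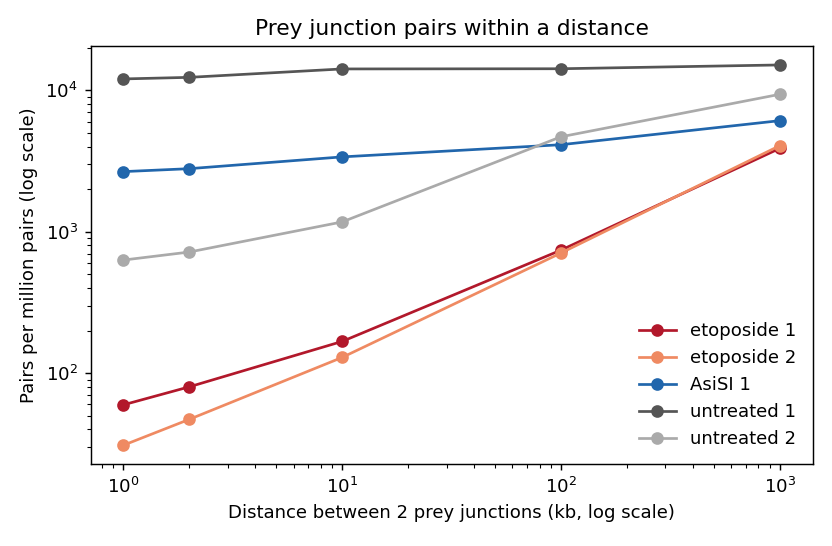
Pairs of prey junctions within 1, 2, 10, 100 and 1000 kb, per 1000000 pairs of a library, on log axes, with 1 line per library. The etoposide lines run together from 59.6 and 30.9 at 1 kb to 3880 and 4055 at 1000 kb, while the AsiSI line starts at 2659 and reaches 6095.

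When prey was chained with gaps of at most 2 kb, AsiSI prey formed 33 clusters of 3 or more junctions that held 23.9% of it. Etoposide prey formed 297 and 27 such clusters with 12.3% and 2.94% of prey, numbers that depend on depth. Of the 33 AsiSI clusters, 29 also held a junction of the DRB with AsiSI library, which shared the sequencing run of the AsiSI library. The etoposide libraries, which are deeper, had a junction in 13 and 9 of them, and each untreated library in 4. The AsiSI cluster with the most junctions after that of Syde2 lay on chromosome 6 (120609282 to 120613291). It had 18 AsiSI, 1 and 7 etoposide, and 2 and 8 untreated junctions. No AsiSI site was found there, nor at the clusters in Mex3a and Narf or beside Rcor1, in the promoter windows and reads searched. After the chromosome 2 window, the etoposide cluster with the most junctions lay on chromosome 14 (19415742 to 19419397), with 15 and 4 etoposide, 4 AsiSI, and 9 and 0 untreated junctions. The next 3 lay in Apobec1, which encodes an RNA-editing cytidine deaminase, in Ptpn6, which encodes a phosphatase of blood cells, and in Pon2, all on chromosome 6. Apobec1 held 13 and 4 etoposide junctions in its cluster, against 0 with AsiSI and 0 in both untreated libraries.

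AsiSI prey marked its recognition sites and etoposide prey scarcely did. Within 1 kb of the 62 promoter sites lay 7 of 10320 and 0 of 3299 etoposide junctions, against 37 of 943 AsiSI junctions and 0 of 678 and 0 of 370 untreated junctions. That is 0.0678% and at most 0.0909% (3 counts) with etoposide and 3.92% with AsiSI (exact 95% interval 2.78 to 5.37), and the difference passed Fisher's exact test in both pairs, with adjusted p = 8.36e-33 and 1.05e-24 over 16 further tests. AsiSI prey lay at 16 of the 62 sites. The 8 sites found in reads were revealed by the junctions themselves, some by AsiSI and others by etoposide junctions, so counts with them are a description only. With these 8 included, 107 AsiSI junctions (11.3%) lay at a site, against 18 and 3 with etoposide. Syde2, Zc3hav1, Pcgf1 and Lpcat3 led this count with 34, 15, 12 and 9 AsiSI junctions. At Zc3hav1 etoposide replicate 1 had 5 junctions within 1 kb, and at the other 3 sites both etoposide libraries together had 2.

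The ends at these sites can be measured because the cut position is known. Of the 107 AsiSI junctions at sites, 95 read away from the cut, as an end of that break would. These had lost a median of 25 bp from the cut (quartiles 10.5 and 35), with 24 joined within 10 bp of it and 79 within 50 bp. The right and left ends of the break gave 45 and 50 junctions. At the sites the bait end had lost a median of 28 bp. Shared bases at the joint were present in 79.4% of junctions at sites and 71.8% of the other AsiSI prey, a difference that did not pass Fisher's exact test (adjusted p = 0.107 over 4 tests). In the DRB with AsiSI library the same shares were 84.1% and 69.6% (adjusted p = 0.0215).

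Etoposide prey was more often inside genes, and AsiSI prey more often within 5 kb of a gene start, a difference called only with prey at AsiSI sites included. Of etoposide prey 67.6% and 68.8% lay in a protein-coding gene, 68.2% ± 0.865 (SD, n = 2), against 52.6% of AsiSI prey and 39.8% and 49.5% of untreated prey. Such genes cover 37.9% of the annotated length. The difference of 15.6 percentage points was called, with the larger adjusted p at 3.01e-19 (Fisher's exact test). The share was also compared for prey over 5 kb from a start, of which 64.97% and 66.3% lay in a gene with etoposide and 44.1% with AsiSI (adjusted p = 2.56e-25 and 7.71e-25). Within genes, 48.4% and 47.9% of etoposide prey and 47.1% of AsiSI prey read in the direction of the gene, which did not pass the test.

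Within 5 kb of the start of a protein-coding gene lay 18.97% and 19.5% of etoposide prey, 19.2% ± 0.396 (SD, n = 2), against 27.5% of AsiSI prey and 9.59% and 9.92% of untreated prey. These windows cover 6.59% of the annotated length. The difference was -8.27 percentage points and was called (larger adjusted p = 4.36e-07, Fisher's exact test). Within 1 kb the shares were 7.05% and 6.95% with etoposide and 14.8% with AsiSI. The difference depended on the distance chosen and on whether prey at AsiSI sites was counted. Most sites found, 62 against 8 others, lie in promoter windows that span gene starts. Only 37 of the 107 AsiSI junctions at sites lay at these, however. The rest lay at sites found in reads, led by Syde2 (34) and Zc3hav1 (15), which lie 1177 and 1191 bp downstream of a start. Leaving out prey at sites thus removes AsiSI prey near starts, and cannot show what the difference rested on. It took AsiSI prey within 5 kb from 254 of 923 to 159 of 816. With prey within 1 kb of a found site left out, 18.8% and 19.5% of etoposide prey and 19.5% of AsiSI prey lay within 5 kb, a difference of -0.34 percentage points that did not pass. Within 1 kb the shares without site prey were 6.94% and 6.87% with etoposide and 11.03% with AsiSI, which was not tested.

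Both profiles peaked just downstream of the start. In the first kb of the gene lay 4.92% and 4.91% of etoposide prey and 9.21% of AsiSI prey. From 2 to 5 kb downstream the order turned, with 1.59% and 1.76% per kb with etoposide and 0.795% per kb with AsiSI. Of prey within 5 kb, 67.2% and 69.8% lay downstream with etoposide and 67.7% with AsiSI, a share that did not pass the test of a difference. The median distance to a start was 26.2 and 26.6 kb with etoposide and 33.3 kb with AsiSI, although AsiSI had the larger share close by. Its quartiles were wider, at 3.19 and 166 kb, against 7.66 and 73.4 kb for etoposide replicate 1.

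**Figure D2:**
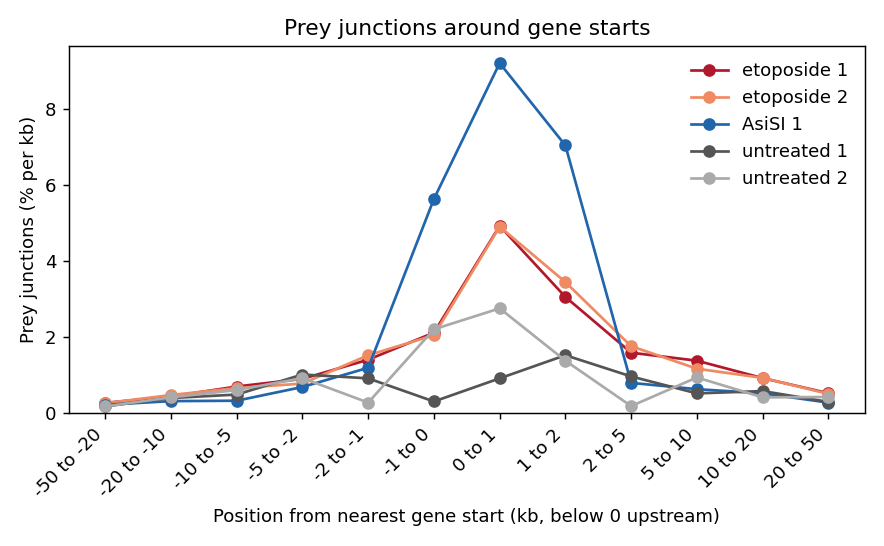
Prey junctions per kb (percent of a library's prey) by position from the nearest start of a protein-coding gene, upstream positions below 0, with 1 line per library. Both etoposide lines reach 4.92% and 4.91% per kb in the first kb and stay above AsiSI beyond 2 kb downstream, while AsiSI reaches 9.21%.

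Chromosome 6 carried all 10 genes that led the etoposide count, and 7 of them held 0 AsiSI junctions. Over all 127 genes with enough junctions to be tested, 99 held 0 AsiSI junctions and 114 lay on chromosome 6, so neither share sets these 10 apart. Exoc4, a subunit of the exocyst complex, held 64 and 22 etoposide junctions, against 0 with AsiSI and 0 and 3 in the untreated libraries. As shares of prey that is 0.620% and 0.667% with etoposide, below the 0.811% of untreated replicate 2. Hipk2, a stress-responsive kinase, held 38 and 17 with etoposide and 0 in the other 3 libraries. Iqsec1, an exchange factor for Arf GTPases, held 47 and 12, against 1 with AsiSI and 1 and 0 untreated. Itpr2, Fam3c, Braf, Etv6, Ube2h and Vgll4 completed the group with 21 to 39 junctions in etoposide replicate 1 and 5 to 20 in replicate 2, against 0 or 1 with AsiSI and 0 in both untreated libraries. A count of 0 among 943 AsiSI junctions allows a share of up to 0.318%. The shares of Exoc4, Hipk2, Itpr2 and Fam3c were above that limit in both etoposide libraries, at 0.333% to 0.667%. Those of Etv6 were below it (0.310% and 0.242%). The genes were picked by these same etoposide counts, so setting their shares against the limit is a description only. None of these genes passed the test in both pairs, with adjusted p = 0.0737 and 0.122 for Exoc4 (Fisher's exact test).

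Foxp1, a forkhead factor needed in early B-cell development, led the etoposide count and was second in the AsiSI count. It took 0.804% and 1.15% of etoposide prey (83 and 38 junctions), against 2.44% of AsiSI prey (23) and 0.442% and 7.30% of untreated prey (3 and 27). Of the 5 libraries, untreated replicate 2 had the highest share. The gene was not called over both libraries (adjusted p = 0.000313 and 0.122, Fisher's exact test). With either etoposide library left out it was called lower with etoposide, but then 88 or 20 genes were tested in place of 127.

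Of the 127 protein-coding genes tested, those with at least 10 junctions over the 3 libraries, 0 were called higher with etoposide (0.0% of those tested) and 6 lower (4.72%), by Fisher's exact test adjusted over all of them and required in both etoposide libraries. At an unadjusted p under 0.05 in both pairs there were 10, and limma with voom weights, which takes the lone AsiSI library to vary like the etoposide ones, called 0 higher and 8 lower. Most tested genes, 114, lay on chromosome 6. The count needed was summed over the 3 libraries, so a gene could reach it through the group where it was high. Syde2, Pcgf1, Gtf3c4 and Lpcat3 reached it only with their AsiSI junctions, and the 99 tested genes with 0 AsiSI junctions only through etoposide. For such genes the test is a description only. Syde2 held 0 and 0 junctions with etoposide, 38 with AsiSI and 0 in both untreated libraries, 4.03% of AsiSI prey (larger adjusted p = 1.08e-23). Zc3hav1, the zinc-finger antiviral protein, held 17 and 3 with etoposide and 16 with AsiSI (adjusted p = 6.60e-07). Pcgf1, a subunit of a variant Polycomb complex, held 1 and 0 with etoposide and 13 with AsiSI (adjusted p = 1.93e-07).

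The other 3 called genes were Gtf3c4, a subunit of the RNA polymerase III factor TFIIIC, the taurine transporter gene Slc6a6 and the phospholipid acyltransferase gene Lpcat3. They held 0 and 2, 12 and 2, and 5 and 4 junctions with etoposide, against 9, 7 and 9 with AsiSI. Gtf3c4 also held 5 junctions in untreated replicate 2, and no AsiSI site was found there or in Slc6a6 in the promoter windows and reads searched. Mex3a and Rcor1, an RNA-binding protein and a corepressor subunit, held 9 and 8 AsiSI junctions and 0 in both etoposide and both untreated libraries, but were below the count needed for the test. At their clusters, too, no AsiSI site was found. All 10 genes with the most AsiSI junctions held some in the DRB with AsiSI library of the same run as well, from 2 in Slc6a6 to 33 in Syde2.

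**Figure D3:**
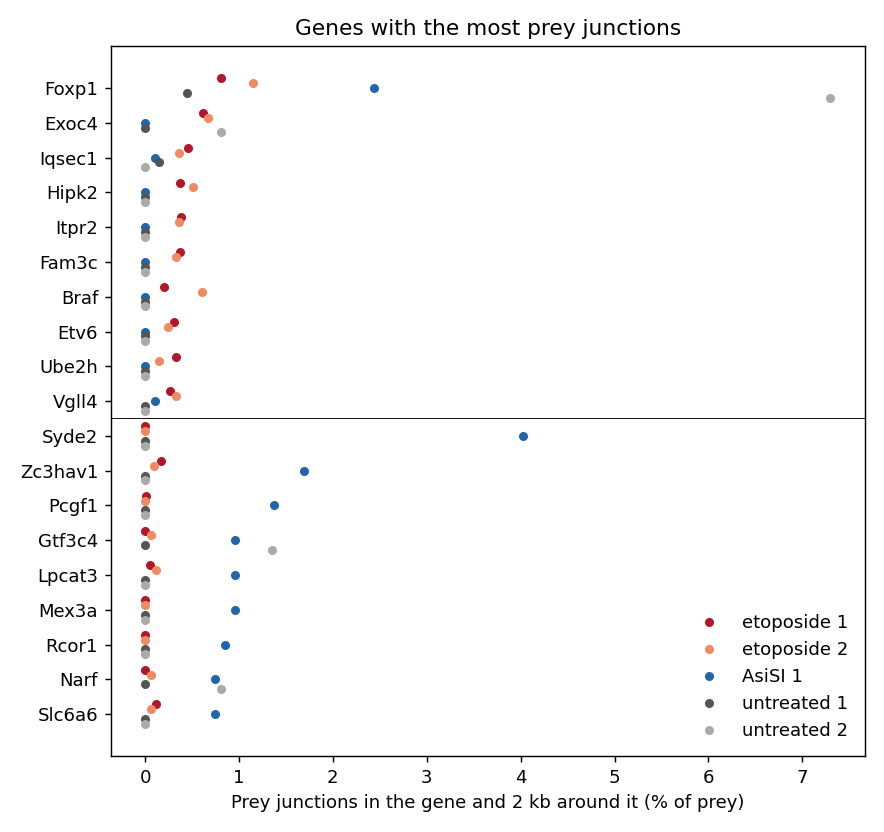
Share of each library's prey (percent) in the 10 genes with the most etoposide junctions, above the line, and in the AsiSI genes not already among them, below it, with 1 point per library and gene bodies extended by 2 kb. Syde2 reaches 4.03% of AsiSI prey at 0 with etoposide, and Foxp1 is highest in untreated replicate 2 at 7.30%.

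Among 28 B-lineage genes 3 could be tested and 0 were called in either direction, against 4.72% called lower and 0.0% higher over all genes tested, so that 3 genes carry little information. They took 1.22% and 1.85% of etoposide prey and 2.65% of AsiSI prey, mostly Foxp1, and 0.885% and 7.57% of untreated prey. Blnk, an adaptor of the pre-B receptor, held 7 and 3 etoposide junctions, Ebf1 8 and 2, and Pax5 3 and 5, the last 2 being transcription factors of B-cell commitment. All 3 held 0 with AsiSI and 0 in the untreated libraries. Their etoposide shares were each below the 0.318% of prey that 0 AsiSI junctions allow. The limits of the untreated libraries were higher, at 0.442% and 0.811%. Most genes tested, 99, likewise held 0 AsiSI junctions, so the zeros do not set these B-lineage genes apart. Highly expressed housekeeping genes, 22 in all, held 18 and 2 etoposide junctions (0.174% and 0.0606% of prey) and 0 AsiSI junctions, and none could be tested. They held 0 in both untreated libraries as well. Both etoposide shares were below the 0.318% that 0 AsiSI junctions allow. The 23 long neural genes held 45 and 18 etoposide and 20 AsiSI junctions. Per 100000 prey and Mb that is 12.8 and 15.98 with etoposide and 62.1 with AsiSI. Over all protein-coding genes the same density was 67.1 and 68.1 with etoposide and 55.3 with AsiSI. The untreated densities of the long neural genes were 38.9 and 47.5, and 2 of them were tested with 0 called, again against 4.72% of all genes tested.

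Etoposide prey was more often on the bait chromosome. Chromosome 6, which makes up 5.50% of the annotated length, took 37.6% and 37.9% of etoposide prey, 37.7% ± 0.228 (SD, n = 2), against 24.8% of AsiSI prey (exact 95% interval 22.1 to 27.7). The difference of 12.9 percentage points was called (larger adjusted p = 8.36e-14, Fisher's exact test). The untreated libraries themselves held 8.85% and 33.2%, a wider gap than that between etoposide and AsiSI. The cis share of etoposide replicate 1 was thus far from that of the untreated library in its own run.

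Along the chromosome the 2 kinds of prey also differed. On the centromeric side of the bait lay 28.3% and 28.7% of etoposide cis prey and 15.8% of AsiSI cis prey (adjusted p = 3.63e-05 and 5.12e-05, Fisher's exact test), with 16.7% and 16.3% in the untreated libraries. The centromeric side is the shorter one, and these shares are not set against its length, so they do not show an excess on either side. From 1 to 10 Mb from the bait the shares were 20.4% and 22.6% with etoposide and 21.8% with AsiSI, which did not pass. From 1 to 5 Mb the shares were 8.43% and 9.52% with etoposide and 14.96% with AsiSI, and the Zc3hav1 site with its 15 junctions lies in that stretch. From 10 to 20 Mb the shares were 16.9% and 15.6% with etoposide, 6.84% with AsiSI, and 8.33% and 7.32% in the untreated libraries.

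Prey was read in both directions about equally. Strand 1 held 50.0% and 50.7% of etoposide prey and 52.3% of AsiSI prey. The difference of -1.95 percentage points was not called (adjusted p = 0.199 and 0.396, Fisher's exact test).

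Joints with etoposide prey shared bases more often and held inserts far less often. Shared bases, where bait and prey alignments overlap on the read, were present in 85.2% and 85.0% of etoposide joints, 85.1% ± 0.196 (SD, n = 2), against 72.6% of AsiSI joints and 56.8% and 68.9% of untreated joints. The difference of 12.5 percentage points was called (larger adjusted p = 1.22e-16, Fisher's exact test). Inserts, bases between the alignments that belong to neither, were present in 3.77% and 3.30% of etoposide joints, 3.54% ± 0.329 (SD, n = 2), against 19.4% of AsiSI joints and 17.6% and 14.3% of untreated joints. This share was 15.9 percentage points lower with etoposide and was called (larger adjusted p = 2.62e-53). Joints with neither made up 10.99% and 11.7% with etoposide and 7.95% with AsiSI, which passed in both pairs (adjusted p = 0.00564 and 0.00157).

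The most frequent overlap was 3 bases with etoposide, in 22.8% and 24.9% of joints, and 2 bases with AsiSI, in 18.98%. Kappa joints of the same libraries, made from RAG breaks, had shared bases in 83.6% and 81.0% with etoposide and 82.4% with AsiSI, and inserts in 11.4% and 14.2% with etoposide and 11.7% with AsiSI. Near the bait, inserts made up 12.1% and 19.7% with etoposide and 24.9% with AsiSI. The insert shares thus lay further apart in prey than in kappa joints, a contrast that was not tested.

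**Figure D4:**
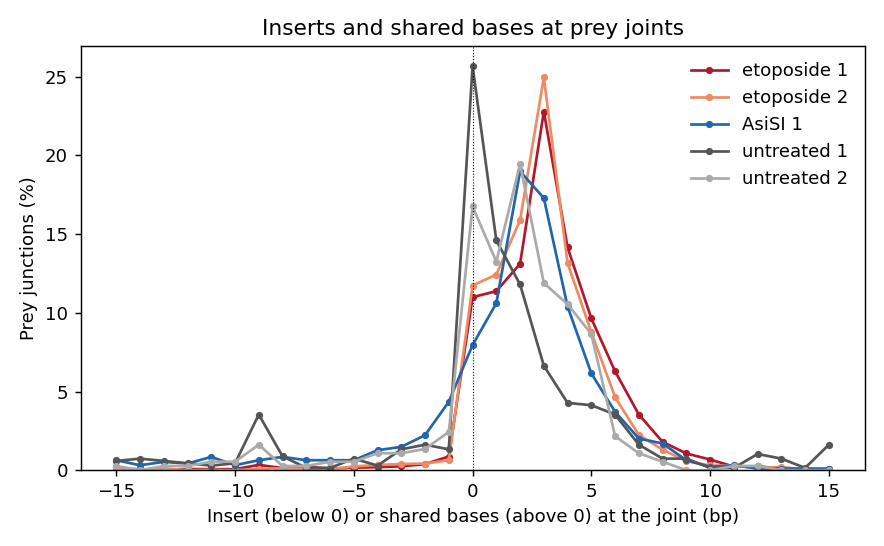
Prey joints (percent of a library's prey) by the number of inserted bases, below 0, or shared bases, above 0, with 1 line per library. Both etoposide lines peak at 3 shared bases (22.8% and 24.9%) and fall close to 0 below 0, AsiSI peaks at 2 (18.98%), and untreated replicate 1 peaks at 0 (25.7%).

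Part of the AsiSI inserts lay beside runs of C and T. Prey with at least 18 C or T among its first 20 bases made up 2.72% and 3.94% of etoposide prey, 7.95% of AsiSI prey, and 3.54% and 1.62% of untreated prey. Among prey with inserts they made up 11.8% and 10.1% with etoposide, 26.8% with AsiSI, and 15.1% and 1.89% in the untreated libraries. The share was 38.0% in the DRB with AsiSI library and 29.0% (9 of 31) in a library with DRB and etoposide, so it is not particular to AsiSI. Without such prey, inserts were present in 3.42% and 3.09% of etoposide joints and 15.4% of AsiSI joints. Shared bases were then present in 85.5% and 85.3% with etoposide and 77.2% with AsiSI. Both differences still passed.

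Bait ends joined to etoposide prey were concentrated at one stretch. The position used most, 41554901, lay 72 bp inside the break and took 10.4% and 11.3% of etoposide prey, against 1.48% of AsiSI prey and 0.147% and 0.811% of untreated prey. The 5 bases around it, in capitals in the bait sequence above, took 22.0% and 24.98% with etoposide, 2.55% with AsiSI (exact 95% interval 1.64 to 3.76), and 1.47% and 6.22% in the untreated libraries. The stretch was chosen in etoposide replicate 1. In replicate 2, which did not choose it, the share was 22.4 percentage points above AsiSI (adjusted p = 6.73e-69 over 2 tests, Fisher's exact test). Kappa joints used the stretch in 5.47% and 2.37% of cases with etoposide and 0.776% with AsiSI.

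Most joints at position 41554901 shared bases with the prey, 899 of 1070 and 315 of 374 with etoposide and 8 of 14 with AsiSI. In 610 and 193 of the etoposide joints the shared bases included the 3 C that end the bait there. Examples from the etoposide genes with the most junctions are shown as read, the bait first, the 3 shared bases in capitals and then the prey.
Foxp1 joint, prey at chr6:98997189, minus strand: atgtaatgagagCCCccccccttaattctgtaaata
Iqsec1 joint, prey at chr6:90761232, plus strand: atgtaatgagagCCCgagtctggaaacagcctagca
Hipk2 joint, prey at chr6:38808961, plus strand: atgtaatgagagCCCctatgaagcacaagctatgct
C over the first 6 prey bases was at 37.9% and 40.4% with etoposide, 28.3% with AsiSI, and 21.0% and 25.2% in the untreated libraries. These prey bases include any shared with the bait, so the joints with 3 shared C are counted here again. Over prey bases 15 to 20 it was 25.4% and 26.8% with etoposide and 26.9% with AsiSI. Where no bases were shared, C over the first 6 prey bases was 30.2% and 32.0% with etoposide and 37.3% with AsiSI. This pattern was noticed in the data and is given without a test.

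The loss from the bait end depended on where the line was drawn. A loss of more than 10 bp was found in 74.8% and 83.3% of etoposide prey, 79.0% ± 6.04 (SD, n = 2), and in 78.3% of AsiSI prey, so that the etoposide libraries lay on either side and nothing was called. They differed from each other by 8.54 percentage points. A loss of more than 50 bp was found in 51.3% and 60.1% with etoposide and 33.8% with AsiSI, 21.9 percentage points higher with etoposide, which passed in both pairs (larger adjusted p = 1.37e-24, Fisher's exact test). The untreated libraries held 30.97% and 42.4%. With the 5-base stretch left out, the shares over 50 bp were 37.6% and 46.8% with etoposide and 32.1% with AsiSI. Median losses were 51 and 60 bp with etoposide, 30 bp with AsiSI, and 20 and 44 bp in the untreated libraries.

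**Figure D5:**
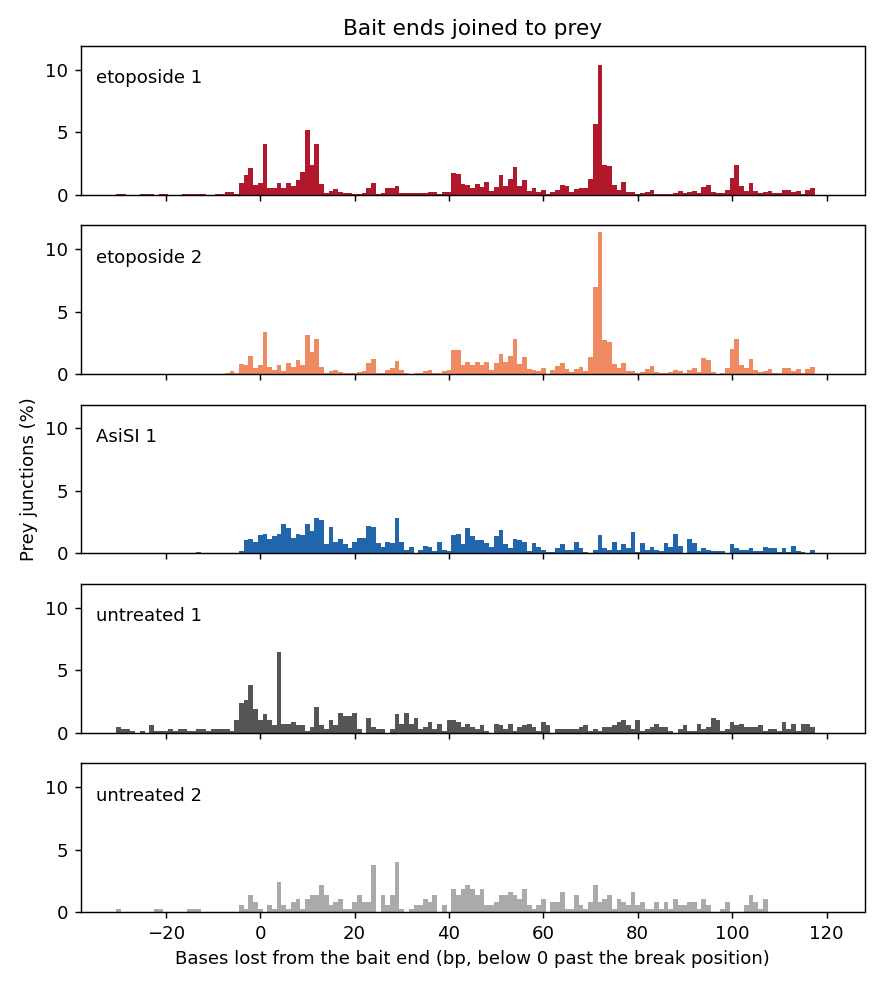
Bait ends joined to prey by the number of bases lost from the break (percent of a library's prey in bars of 1 bp, values below 0 reaching past the break position), with 1 panel per library. Both etoposide panels show a peak of 10.4% and 11.3% at a loss of 72 bp, where AsiSI has 1.48%.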

How the data were processed

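Per the labels' protocols, DNA of arrested cells was prepared by linear-amplification-mediated translocation sequencing, run on a MiSeq and passed through the assay's standard pipeline. Builds named in the submitters' processing notes are GRCm38.p2 and mm10, and the tool named is bedtools. The deposited tables list 1 junction per row with position, strand, alignments and read, per the file headers, and hold no other unit of measurement. Filters within that pipeline are not given in the sources used here.

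Junctions on chromosomes 1 to 19, X and Y were used, every row counting once. Bodies came from the RefSeq table of GRCm38.p6, starts and strands from RefSeq promoter windows, which gave 17492 of 21887 protein-coding genes a start. Starts on chromosome 18 were not used here, and its prey was left out of start shares. Gene counts took the body and 2 kb around it. Overlap was the bait's last aligned read base minus the prey's first plus 1. Inserts in the files end at 30 bp.

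Named genes were the 10 with the most junctions in each group, the called genes and, per list, at most 4 genes ranked by junctions. Members, lists and tests were chosen with earlier results of these data known. Intervals are exact Clopper-Pearson intervals at 95%, and they, the limits from 3 counts and Fisher's exact test cover counting error only, not spread between cultures. PCR copies may remain. Python 3.11.15, scipy 1.17.1, statsmodels 0.14.6, R 4.3.3 and limma 3.58.1 were used. On simulated counts with 200 genes changed 8-fold, 11 of 100 raised genes were called with 184 genes tested, 2 lowered genes passed the count filter with 0 called, and 0 other genes were called. A result of 0 genes higher is weak at this depth.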

Additional observations from a re-analysis of the deposited data

How the results depend on the processing

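Differences are in percentage points, etoposide minus AsiSI. The differences in cis, gene body, insert and overlap shares kept their direction and passed, and that of strand 1 did not pass, under every alternative run, including identical positions counted once, trans prey (where it applies), alignments of at least 50 bp and either etoposide library alone. The gene start difference (-8.27) was no longer called at -2.98 with the DRB with AsiSI library in place of AsiSI (adjusted p = 0.0595), at -3.28 within 10 kb and at -0.34 without prey near the AsiSI sites found. The bait loss difference over 10 bp (0.767) was -3.50 and 5.04 with either etoposide library left out, was -1.84 for any loss and -5.00 without the 5-base bait stretch, and was called at 21.9 for losses over 50 bp. The cause of these changes was not tested. The difference in pairs within 2 kb per 1000000 (-2726) stayed negative throughout. It was -2193 with identical positions counted once, -1645 with DRB with AsiSI, -2770 beyond 10 Mb, -3949 for alignments of at least 50 bp, -2565 without windows recurrent in untreated cells, -3387 in trans, -2614 within 1 kb, -3231 within 10 kb, -3397 within 100 kb, -1597 without each library's largest cluster, -1126 without AsiSI sites and -3114 without runs of C and T. The 6 called genes became 2 in trans, 2 without AsiSI sites (Gtf3c4 and Slc6a6), 12 with at least 5 junctions, and 7 to 10 with 1 etoposide library left out. The 10, with etoposide replicate 2 alone, included Exoc4, Hipk2 and Braf as higher with etoposide. Foxp1 and Hk2 were called lower with either etoposide library left out. The alternatives on AsiSI sites, runs of C and T, the bait stretch and either gene end (-4.46, called) were chosen after seeing the data. No paired analysis was possible because the AsiSI group is 1 library without a replicate number. With 943 AsiSI junctions, genes with few junctions could not be compared.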
